A study of Mus musculus with 6 samples.

Results

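Adipocytes lie in the fat that surrounds the adrenal gland, and some are carried along when a whole gland is dissected and its nuclei are isolated. The nuclei described here were chosen by their measured counts: at least 3 of 10 genes (Cidec, Lpl, Plin1, Nrg4, Pnpla3, Adipoq, Ucp1, Slc36a2, Tmem45b and Pparg) had to be detected. The rule chose 501 of the 21035 nuclei that passed the quality filters. The same values that chose these nuclei cannot test them, so their levels of adipocyte genes are given as a description.

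Fat cells store triglyceride in lipid droplets and release it as fatty acids. White adipocytes are built for storage and secrete hormones such as leptin and adiponectin. Brown and beige adipocytes carry UCP1, the uncoupling protein of the inner mitochondrial membrane, and burn fatty acids to make heat when noradrenaline stimulates them. Fat around the kidney and adrenal gland in mice is known to hold cells of both kinds.

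The nuclei came from whole frozen adrenal glands of female C57BL/6J mice aged 10 to 11 months, each library from a gland pair, and were sorted on the DNA stain DAPI. RNA was read from its 3' ends in droplets, and molecules were counted by their unique molecular identifiers (UMIs). By their labels 2 libraries were knockout (KO) for Tmem127, a transmembrane protein of endosomes and lysosomes that restrains the growth kinase complex mTORC1 and is a human phaeochromocytoma susceptibility gene, and 3 were wild type (WT). For the sixth library the title gives WT but the genotype field KO, so it is called unassigned and kept apart. The labels do not name the deleted part of Tmem127 or the cells in which it is lost.

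The libraries held 2886 to 4653 barcodes and 4825169 to 43377724 UMIs each, 119461403 UMIs in all. An annotation of 32285 genes was used for replicate 1 of KO and of WT and one of 31053 genes for the other libraries, so each annotation batch holds both genotypes. Across libraries 72 barcode sequences occurred more than once. Levels below are in CPM, a gene's UMIs relative to the total UMIs of the nuclei named. Tmem127 (chr2:127247908-127261107, plus strand, GENCODE annotation of GRCm38) itself gave few UMIs in the 501 nuclei. The KO replicates 1 and 2 had 29.9 and 14.5 CPM (25 and 2 UMIs), against 38.4, 28.4 and 18.5 CPM (37, 8 and 10 UMIs) for the WT replicates 1, 2 and 3. The ranges overlapped, and 3' tags outside the deleted part would remain in a knockout, so this level checks no label.

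The 501 nuclei were of 2 kinds. In 449 of them the 10 rule genes made up at least 0.204% of all UMIs, with a median between 1.42% and 1.88% in each library. In the other 52 they made up at most 0.148%, and no nucleus lay between these values. Of the 449 nuclei, 443 fell into a single Leiden cluster of 444 nuclei, whose leading genes were Tmem45b, Car3, Cidec, Ucp1, Nrg4, Ankef1, Slc36a2, Pnpla3, Adrb3 and Ctcflos. None of the 52 did, which allows a share of up to 5.77% (3 counts of 52). Of the 52, 12 and 6 lay in the clusters led by Olfm3 and by Lrrtm4, 7 in a cluster led by Abcb1b, and 10 in a cluster of 46 nuclei led by Cps1 and Abcc2, which are abundant in liver. A list of 10 chromaffin cell markers summed to 926 to 11781 CPM across libraries in the 52.

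These 52 nuclei did not bear out the name adipocyte. Summed over 23 adipocyte genes outside the rule (such as Acsl1, Lipe and Fabp4), the level in the 449 nuclei was 41060 to 56314 CPM across libraries. In the 52 it was 621 to 1617 CPM in 5 libraries and 7680 CPM in KO replicate 1, against 881 to 1198 CPM in all other nuclei. They were deep, with a median of 15829 UMIs in KO replicate 1 and 14138 in WT replicate 1, and these libraries held most of them, 20 and 18, while KO replicate 2 held 1. They supplied 340177 of the 844009 UMIs of the rule nuclei in KO replicate 1. Below, "rule nuclei" means all 501 and "adipocyte nuclei" the 449.

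**Figure D1:**
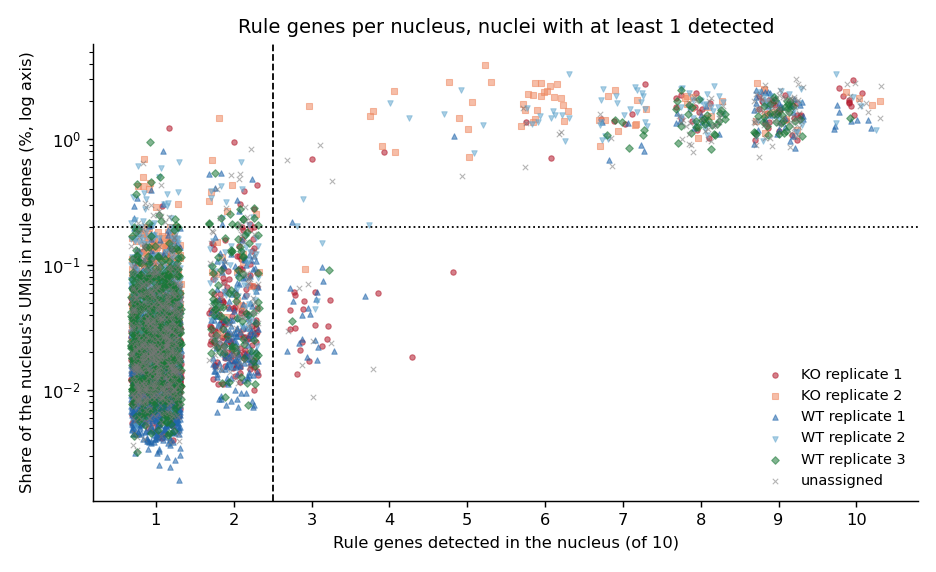
Rule genes per nucleus. Each point is a nucleus with at least 1 rule gene, coloured by library. The x axis gives how many of the 10 rule genes were detected (points are spread sideways within a number), and the y axis their share of the UMIs of the nucleus in percent on a log axis. Right of the dashed line are the 501 nuclei of the rule, of which 449 lie above the dotted line at 0.2% and 52 below it.

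At the edge of the rule, 55 nuclei had exactly 3 rule genes, with a median share of 0.0440% of UMIs, and 8 of them lay above 0.2%. Just outside it, 573 nuclei had 2 rule genes, with a median share of 0.0385%, and 54 of them lay above 0.2%. Nuclei with 8, 9 or 10 rule genes numbered 112, 184 and 36 and all lay in the adipocyte cluster. Per library the rule nuclei numbered 79 and 68 (KO replicates 1 and 2), 76, 94 and 71 (WT replicates 1, 2 and 3) and 113 (unassigned). The adipocyte nuclei numbered 59, 67, 58, 91, 69 and 105 in the same order. Their median depth was lowest in KO replicate 2, at 1735 UMIs, and highest in WT replicate 1, at 12078.

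Genes of fat storage were detected in most adipocyte nuclei. All genes below but Acsl1 are rule genes, so the rule itself favoured their detection. Acsl1, which activates fatty acids with coenzyme A and is not among the rule genes, was detected in 446 of 449. Lpl, the lipase that frees fatty acids from circulating lipoproteins, was detected in 437, and Nrg4, a growth factor secreted by fat, in 429. Pparg, the nuclear receptor that drives fat cell differentiation, was detected in 419. Cidec, which enlarges lipid droplets by fusion, was detected in 415 and Plin1, the coat protein of those droplets, in 407. The amino acid transporter gene Slc36a2 was found in 393, the phospholipase family gene Pnpla3 in 373 and the membrane protein gene Tmem45b in 354. Per library Plin1 was found in 68.7% to 100% of nuclei, Slc36a2 in 55.2% to 100% and Pnpla3 in 56.7% to 97.1%. Each was lowest in KO replicate 2. Adipoq, which encodes adiponectin, was detected in 235 of 449, and per library in 24.6% to 78.1% of nuclei. Ucp1 (chr8:83290352-83298452, plus strand) was detected in the fewest, 146 of 449, from 13.3% in the unassigned library to 55.1% in WT replicate 3.

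Against the other nuclei of the same glands, 192 of 4437 genes with at least 20 CPM in the rule nuclei of every library had a mean ratio of at least 10. Tmem45b had the highest ratio, with a mean of 1469 CPM over the 6 libraries (1005 to 2049) against 1.14 CPM (0.846 to 1.42) in the other nuclei. Car3, a carbonic anhydrase abundant in fat, stood at 3113 to 6717 CPM against 4.83 to 29.1. Adrb3, the beta-3 adrenergic receptor through which noradrenaline acts on fat cells, stood at 264 to 1179 CPM against 0.674 to 3.48. Among the 20 highest ratios were also genes of glycerol and fatty acid handling (Pck1, Scd1, Pdk4 and Ces1d), the transporter regulator Tusc5, the thermogenic genes Cidea and Dio2, and Ankef1, Ctcflos and Gm16168. The rule made this contrast, so these values carry no test. Marker lists of other cells were summed in the adipocyte nuclei alone, without the 52 set apart above. There the chromaffin list summed to 73.3 to 232 CPM and the endothelial list to 79.1 to 179 CPM, against 1123 to 2116 and 1137 to 1659 CPM in the other nuclei. Not all were lower: pericyte and smooth muscle markers summed to 30.9 to 80.0 CPM against 44.6 to 79.8, hepatocyte markers to 216 to 838 CPM against 8.13 to 181, and T, NK and B cell markers, mostly Ebf1, to 2798 to 4987 CPM against 425 to 663.

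Ucp1 was detected in some adipocyte nuclei and not in others. The 146 nuclei with Ucp1 held a median of 12 Ucp1 UMIs and at most 82, and 7 held exactly 1. The other 303 held none, which at these depths does not show that they lacked it: in KO replicate 1 the share with a UMI was 30.5% as counted and 22.0% after thinning to 500 UMIs. Depth did not separate them in a fixed direction: the median was 6865 UMIs with Ucp1 and 8087 without in KO replicate 1, and 12743 and 11862 in WT replicate 1. In the other nuclei of the glands, 0.205% to 1.35% had a Ucp1 UMI. Genes other than Ucp1 were then compared between nuclei with and without a Ucp1 UMI within each of the 6 libraries. This is a description, since the same nuclei were used to define both sets, and all ratios are of mean CPM with 5 CPM added to each.

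Many thermogenic genes were higher in the nuclei with Ucp1. Of 23 such genes other than Ucp1 with at least 20 CPM, 16 were higher in all 6 libraries and 0 were lower in all 6, with a median ratio of 4.00. Over all 6593 genes, 7.14% were higher in all 6 libraries and 8.93% lower, with a median ratio of 1.01. The members of this list and of those below were picked with earlier results of these data known, so their counts are a description. Gk, the glycerol kinase that recycles glycerol into triglyceride, was 1757, 488, 1829, 1749, 2439 and 3533 CPM with Ucp1, listed from KO replicate 1 through the WT libraries to the unassigned library. Without Ucp1 it was 200.3, 127, 57.3, 128, 19.3 and 107 CPM. The lowest value with Ucp1 lay above the highest without, and the ratio was 17.7.

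Esrrg, an estrogen-related receptor that switches on oxidative genes, was 1565 to 2451 CPM with Ucp1 and 62.9 to 237 without, a ratio of 15.1. The 2 ranges were apart in all libraries. Cidea, a droplet protein of brown fat, was 319 to 1018 CPM against 19.3 to 148. Slc27a2, a very long chain fatty acid activating enzyme, was 126 to 340 CPM with Ucp1, while only 4 of its UMIs were found in all 303 nuclei without. Ppara, the receptor that governs fatty acid oxidation, was 1177 to 2522 CPM against 132 to 554. Ppargc1a, the coactivator of mitochondrial biogenesis, was higher with Ucp1 in each library, although its values overlapped between libraries: 338 CPM with Ucp1 in WT replicate 1 lay below the 665 without it in KO replicate 2. Dio2, the deiodinase that activates thyroid hormone inside brown fat, was 85.5 to 1537 CPM against 19.1 to 296, also with overlap between libraries. Prdm16, a regulator of brown and beige fate, was 539 to 1110 CPM against 232 to 423. Cpt1b levels are not given because its detection followed the annotation batch, with 0 UMIs in some libraries. Among nuclei with Ucp1 it was found in 72.2% in KO replicate 1 and 85.7% in WT replicate 1. In every other library it was found in at most 7.14%. It was not taken out of the list counts, since only Ucp1 was removed from the thermogenic list.

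**Figure D2:**
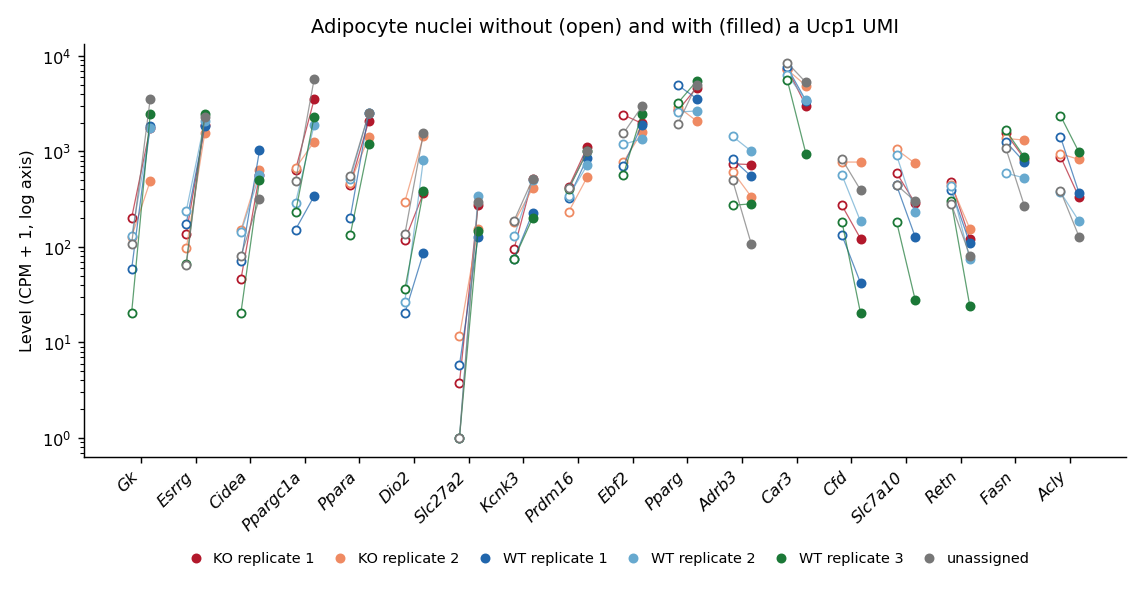
Levels with and without Ucp1. Each line joins a library's adipocyte nuclei without a Ucp1 UMI (open, left) to those with one (filled, right), on a log axis of CPM + 1. Gk, Esrrg, Cidea, Ppara and Slc27a2 rise in all 6 libraries, Pparg and Ebf2 do not move in a fixed direction, and Car3, Cfd, Slc7a10, Retn, Fasn and Acly fall in all 6.

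The 2 thermogenic promoters below are shown because they hold, within 250 bases before to 50 after a RefSeq start, a motif of a pathway named here. They are RefSeq sequences of GRCm38.p6, 5′ to 3′ on the strand of the gene, with the motif in capitals. The first is the cAMP response element, TGACGTCA, read by factors of the adrenergic pathway, and the second the reverse complement of AAGGTCA, a core motif of nuclear receptors such as the estrogen-related receptors.
Dio2, chr12:90739116-90739143, minus strand: tctttctcaaTGACGTCAagatctttag
Slc27a2, chr2:126552794-126552820, plus strand: accacgccttTGACCTTttcaacgtgg
The Dio2 element lies 95 bases before a RefSeq start and the Slc27a2 element 220 bases before one. In the GENCODE annotation Slc27a2 starts further upstream, at chr2:126552407, so the element shown lies inside the gene as annotated there. Both strands were searched in promoters of 13 of 17 thermogenic genes that RefSeq matched. The 13 genes had 18 promoters, so counts per gene are not directly comparable with the shares of all promoters. TGACGTCA was found for 1 of the 13 genes and in 1.79% of all 32851 promoters, and AAGGTCA for 1 of the 13 and in 4.72% of all. The DR1 direct repeat of that receptor motif was found in 0 of the 13 and in 0.0396% of all. These are matches of letters and show no binding.

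Adipocyte nuclei pooled over the 6 libraries were placed by a sum of 8 thermogenic genes, each already higher with Ucp1 in all 6. That choice makes Ucp1 rise with the sum, so the values describe only how the nuclei spread along it. Over the 8 genes Gk, Esrrg, Ppargc1a, Ppargc1b, Cidea, Slc27a2, Ppara and Dio2, picked after their values were seen, 147 adipocyte nuclei spent under 0.1% of their UMIs on the 8, and 2 of these nuclei had a Ucp1 UMI. With 0.25% to 0.5% on the 8 genes, 20 of 63 nuclei had one. With 1% to 2%, 64 of 66 did, with a median of 13 Ucp1 UMIs. Above 2%, all 18 did, with a median of 23. Nuclei in between were not rare: 105 nuclei spent 0.1% to 0.25% and 50 spent 0.5% to 1%, of which 10.5% and 62.0% had a Ucp1 UMI.

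**Figure D3:**
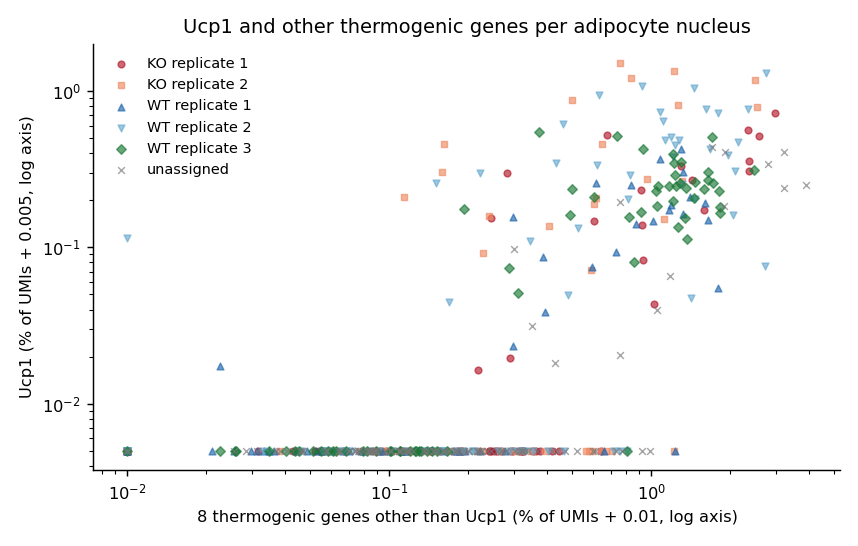
Ucp1 and other thermogenic genes per nucleus. Each point is 1 of the 449 adipocyte nuclei, with the summed share of UMIs of 8 thermogenic genes on the x axis and that of Ucp1 on the y axis, both in percent on log axes after adding 0.01 and 0.005. Nuclei without a Ucp1 UMI lie on the bottom line and reach into the middle of the range, while those above 2% on the x axis all carry Ucp1.

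Receptors upstream of heat production did not all follow Ucp1. Adrb3 was lower with Ucp1 in 5 of 6 libraries (mean 499 CPM with and 728 without). Adra1a, an alpha-1 adrenergic receptor, was higher in all 6 (411 to 1420 CPM against 147 to 426), and so were the adenylyl cyclase gene Adcy3 (230.5 to 953 against 77.4 to 169) and the G protein gene Gnas (462 to 1446 against 165 to 384). Of 25 genes of adrenergic and cAMP signalling, 8 were higher in all 6 libraries and 1, Adcy5, was lower. Ebf2, a factor that marks brown and beige precursors, was detected in 93.8% of nuclei with Ucp1 and in 76.6% without, and was higher with Ucp1 in 5 of 6 libraries. Pparg was higher in 4 and lower in 2.

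Some genes of white fat and of fatty acid synthesis were lower in the nuclei with Ucp1. Of 8 white fat genes with at least 20 CPM, 4 were lower in all 6 libraries (Retn, Slc7a10, Car3 and Cfd), 0 were higher and 4 were mixed, beside 8.93% of all genes lower. Retn, which encodes the hormone resistin, was 121, 154, 108, 73.6, 23.1 and 79.8 CPM with Ucp1 and 473, 443, 396, 436, 298 and 282 without, in the order of libraries given for Gk. The ranges did not overlap. Of 16 genes of de novo lipogenesis 11 were mixed, 0 were higher and 5 were lower in all 6: Acly, Acaca, Fasn and Thrsp, which make fatty acids from citrate or regulate that path, and the citrate carrier Slc25a1 (7.12 to 77.0 CPM against 107 to 279). Of 20 genes of fatty acid oxidation 8 were higher in all 6, 0 were lower and 12 were mixed, beside 7.14% of all genes higher. Slc25a20, the mitochondrial acylcarnitine carrier, was 452 to 769.8 CPM with Ucp1 and 135 to 228 without, and both subunits of the trifunctional protein, Hadha and Hadhb, were higher in all 6. Among the droplet proteins, Plin5 and Plin2 were higher with Ucp1 in all 6 libraries, and Plin4 was lower in all 6. Cidec and Pnpla3 were also lower in all 6, but both are rule genes. A nucleus with Ucp1 needed fewer of the other rule genes to be chosen, so their lower level cannot be told apart from the rule.

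Over all genes with at least 50 CPM in either set, 145 of 3923 (3.70%) were at least 2-fold higher with Ucp1 in all 6 libraries and 218 (5.56%) at least 2-fold lower. Behind Slc27a2, the highest ratios after Ucp1 itself were those of Rnf152, Gk, Acot11 and Esrrg. Rnf152 encodes a lysosomal ubiquitin ligase that restrains mTORC1 and was 77.0 to 561 CPM with Ucp1 and 0 to 62.1 without. Slc4a4, a sodium bicarbonate cotransporter, was 2848 to 7984 CPM against 69.6 to 698. On the other side, Aldh1a1, the retinaldehyde dehydrogenase, was 97.4, 169, 129, 64.1, 391 and 185 CPM without Ucp1 and had 2 UMIs in all nuclei with it. Rgs7bp, which anchors regulators of G protein signalling at the membrane, had 104 UMIs without Ucp1 and 0 with it. Chrdl1, a secreted BMP antagonist, had 131 UMIs and 1, and Col15a1, a basement membrane collagen, 201 and 5. Of 19 secreted factors and hormone receptors, 7 were lower with Ucp1 in all 6 libraries, 1 was higher and 11 were mixed. The 7 include the rule gene Adipoq, which helped choose the nuclei. Ghr, the growth hormone receptor, was 5081 to 10995 CPM with Ucp1 and 7549 to 22666 without. The receptor genes Tshr and Ptger3 and the secreted growth factor gene Igf1 were also lower in all 6, and Thrb, a thyroid hormone receptor, was higher (1224 to 1951 CPM against 1055 to 1365).

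The share of adipocyte nuclei was compared between genotypes over libraries. Rule nuclei made up 2.45% and 2.43% of all nuclei in KO, against 1.70%, 2.86% and 2.01% in WT, with exact 95% binomial intervals that reach from 1.34% to 3.49% over these 5 libraries. The KO mean was 2.44% ± 0.0161 (SD, n = 2), against 2.19% ± 0.602 (SD, n = 3) for WT. The KO values lay inside the WT range, and permuting the libraries on the logit scale (exact, two-sided) gave p = 0.6, where the smallest possible is 0.1. In the batch of KO replicate 1 and WT replicate 1 the KO share was the higher, and in the other batch it lay between the WT shares. The unassigned library had 3.04%. As shares of adipocyte nuclei the values were 1.83% and 2.39% in KO, 1.30%, 2.77% and 1.95% in WT, and 2.83%. How much fat was left on each gland is not given in the labels, so dissection and genotype cannot be told apart in these shares.

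The share of rule nuclei with a Ucp1 UMI was compared after each nucleus was thinned to 1000 UMIs, since deeper nuclei show a gene more often. The KO replicates 1 and 2 had 19.2% (15 of 78) and 25.9% (14 of 54), against 20% (15 of 75), 33.7% (30 of 89) and 47.9% (34 of 71) for the WT replicates 1, 2 and 3. Nuclei under 1000 UMIs were left out, 1 and 14 in KO and 1, 5 and 0 in WT. Means were 22.6% ± 4.73 (SD, n = 2) and 33.9% ± 13.9 (SD, n = 3). Ucp1 is itself a rule gene, so these shares are a description, with no test. Values overlapped: KO replicate 2 lay above WT replicate 1, which is of the other annotation batch. Within each batch the KO share was the lower. It was 19.2% against 20% for the replicates 1, and 25.9% against 33.7% and 47.9% in the other batch. Without thinning the shares were 25.3% and 29.4% in KO and 27.6%, 39.4% and 53.5% in WT. The unassigned library had the lowest share, 10.0% (11 of 110). Among all other nuclei 0.0695% to 0.80% had a Ucp1 UMI after the same thinning. The share of nuclei with a Ucp1 UMI varied more among the WT libraries, from 20% to 47.9%, than the group means differed.

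**Figure D4:**
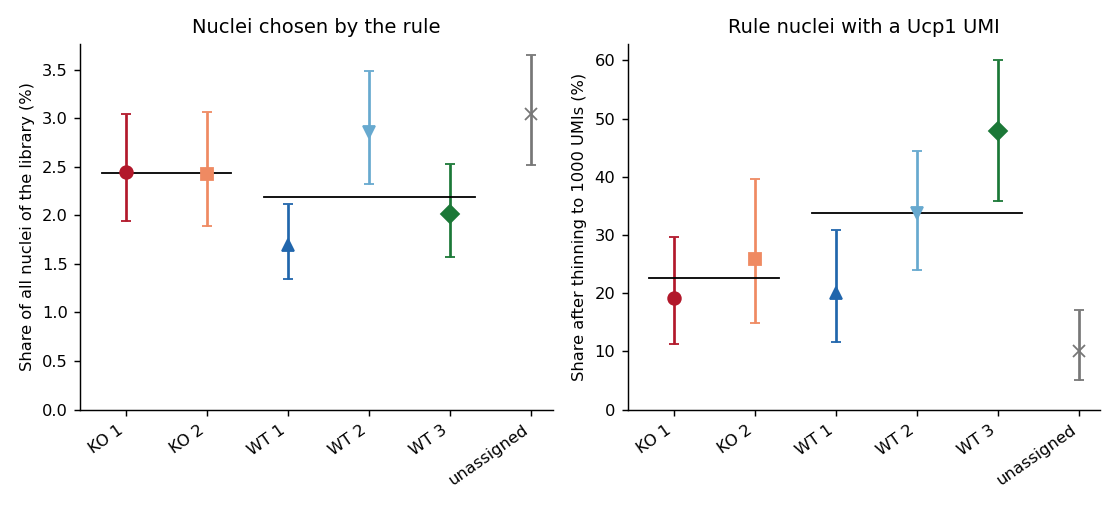
Shares by library. The left panel shows the rule nuclei as a percent of all nuclei of a library, and the right panel the percent of rule nuclei with a Ucp1 UMI after thinning to 1000 UMIs. Points are libraries, bars exact 95% binomial intervals (counting error only) and horizontal lines the KO and WT means. The KO points lie inside the WT range on the left, and on the right WT replicate 3 is the highest at 47.9% and the unassigned library the lowest at 10.0%.

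Gene levels were then compared between KO and WT over libraries, with counts summed per library and the annotation batch as a term (edgeR's quasi-likelihood test, Benjamini-Hochberg adjustment). In the rule nuclei 0 of 7416 genes (0.0%) passed 0.05. DESeq2 called 19, and 467 lay under 0.05 in edgeR before adjustment. The 10 smallest p-values all had an adjusted p of 0.151. Among them, Pcdh7 (a protocadherin), A830018L16Rik, H2-Q10, Aspg, Cyp2e1, Olfr1033, Fmo5, Zfp385b, Chsy3 and Iigp1, 2 had most of their UMIs in KO replicate 1 in nuclei below 0.2%. Chsy3 was 245 CPM there in the rule nuclei and 40.0 CPM in the adipocyte nuclei, where its log2 fold of KO against WT was still 4.27 ± 1.09 (SE, adjusted p = 0.194). Zfp385b had 113 UMIs there in the rule nuclei and 16 in the adipocyte nuclei, and its log2 fold within that batch went from 2.58 to 0.44. In the adipocyte nuclei alone 16 of 6745 genes (0.237%) passed, 12 (0.178%) higher and 4 (0.0593%) lower in KO, and 503 had an unadjusted p under 0.05. All 16 had the same sign in both fits, which share these nuclei. Folds below are log2 folds of KO against WT in the adipocyte nuclei with their standard error (SE), n = 2 and 3 libraries.

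The 12 genes that rose were led in expression by St3gal6, Acaa1b, Cadps2 and Mgat5. St3gal6, a sialyltransferase, was 484 and 1967 CPM in KO against 144, 472 and 444 in WT, always in the order of the replicate numbers, with 1124 in the unassigned library. Each KO library lay above the WT libraries of its batch, and the fold was 1.99 ± 0.275 (SE, adjusted p = 0.0424). Mgat5, which branches N-glycans, was 306 and 426 CPM in KO against 106, 117 and 129 in WT (fold 1.70 ± 0.276). The groups did not overlap. Cadps2, a priming factor for dense-core vesicle release, was 292 and 456 CPM in KO against 129, 102 and 116 in WT (fold 1.69 ± 0.298). Pepd, a dipeptidase that releases proline, was 186 and 217 CPM against 48.0, 75.6 and 46.3 (fold 1.95 ± 0.330). Slc22a4, an organic cation transporter, Sema3a, an axon guidance ligand, Shisa6, which binds glutamate receptors, and Ofcc1 rose by folds between 1.96 and 3.93.

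Acaa1b, a peroxisomal thiolase, was 276 and 576 CPM in KO against 68.3, 147 and 32.8 in WT (fold 2.48 ± 0.451). H2-Q10, a secreted MHC class I molecule, was 178 and 337 CPM against 52.3, 34.0 and 61.7 (fold 2.33 ± 0.348), and Aspg, an asparaginase, 98.0 and 307 against 33.4, 75.6 and 75.2 (fold 1.86 ± 0.313). In the nuclei outside the rule, H2-Q10 was 23 and 4.71 CPM in KO against 0.337 to 0.662 in WT. A list of 10 hepatocyte markers summed to 668 and 838 CPM in the KO adipocyte nuclei against 330.0, 348 and 216 in WT, with no overlap, and to 743 in the unassigned library. Cyp2e1, a cytochrome P450, supplied 480 and 793 CPM of the KO sums and 231, 298 and 210 of the WT sums. Alb overlapped between the groups (4.00 and 37.4 against 0, 41.6 and 1.93 CPM), as did Trf (176 and 0 against 95.9, 0 and 1.93 CPM). Apoa1, Apoa2, Apob, Ttr, Fgb and Mup20 were at or under 7.48 CPM in every library, and Serpina1a was at 0. The part of liver RNA in these folds was not tested. Of the other marker lists, 2 did not overlap: the list of T, NK and B cell markers was lower in KO (3566 and 2798 CPM against 4987, 3955 and 4087), of which Ebf1, also a factor of adipocytes, supplied 3552 and 2730 against 4982, 3933 and 4081 while Pax5 was at 0, and the mesothelial list was higher (10.0 and 15.0 CPM against 7.27, 7.56 and 1.93). The lists of adrenal cortex, chromaffin, endothelial, fibroblast, macrophage, pericyte, Schwann, kidney tubule, skeletal muscle and erythroid markers overlapped between the groups. With so few libraries, a list can also separate by chance. The part of the T, NK and B cell and mesothelial lists was not tested either. Egr1, an immediate early transcription factor, rested on a single library, with 41 UMIs in KO replicate 2 and 0 in KO replicate 1, against 0, 7 and 3 in WT.

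The 4 genes that fell included a hormone receptor. Tshr (chr12:91384563-91549808, plus strand), the thyrotropin receptor, through which thyrotropin stimulates lipolysis in fat, was 130 and 112 CPM in KO against 512, 355 and 733 in WT (fold -2.09 ± 0.381, adjusted p = 0.0484). The unassigned library, at 222, lay between. Pcdh7 was 78.0 and 44.9 CPM in KO against 233, 378 and 341 in WT (fold -2.09 ± 0.376), A830018L16Rik 270.0 and 105 against 795, 502 and 529 (fold -1.86 ± 0.323), and the antisense transcript Gm4876 24.0 and 7.48 against 185, 64.2 and 98.4 (fold -2.98 ± 0.476). In none of these genes, chosen by this same contrast, did the groups overlap. Tshr and Pcdh7 were also lower in nuclei with Ucp1, whose thinned share of the adipocyte nuclei was 25.9% and 26.4% in KO against 26.3%, 33.7% and 49.3% in WT. In the nuclei without a Ucp1 UMI alone, the folds of Tshr and Pcdh7 were -2.51 (adjusted p = 0.109) and -2.46 (adjusted p = 0.109). The fold of Gm4876 there was -3.02 (adjusted p = 0.0899), and that of A830018L16Rik was smaller than in all adipocyte nuclei, at -0.95 (adjusted p = 0.453). In these nuclei 0 of 4762 genes passed edgeR's test with 366 at an unadjusted p under 0.05. All 14 of the 16 genes that could be tested kept their sign, but these nuclei are part of those that chose them.

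**Figure D5:**
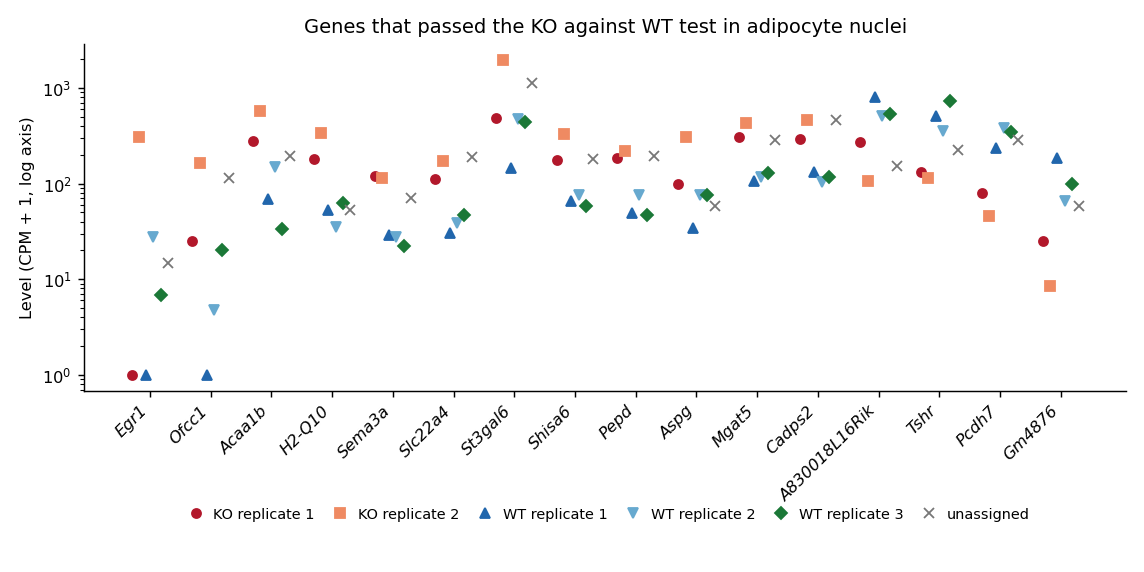
The 16 genes that passed in the adipocyte nuclei. Points are libraries (KO, WT and unassigned) on a log axis of CPM + 1, and genes are ordered by fold. In all but Egr1, both KO libraries lie on the same side of the 3 WT libraries, and for Egr1 KO replicate 1 is at 0. The same contrast chose these genes, so their separation is no added support. The share of all tested genes that separate in this way was not counted.

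The 16 calls depended on which libraries entered. Without KO replicate 1, 3 genes passed and 1 of the 16 was among them. Without KO replicate 2, 9 passed and 1 of the 16 was among them (Gm4876). Without WT replicate 1, 6 passed, including Egr1, Shisa6 and H2-Q10. Without WT replicate 2 or 3, 55 and 136 passed, and each time 15 of the 16 did. With no batch term 0 passed. With the unassigned library counted as KO 18 passed, including 9 of the 16, and counted as WT 0 passed. DESeq2 called 13, including 10 of the 16. On simulated counts for this comparison, 7.07% of genes with a 2-fold and 69.9% with a 4-fold change were recovered.

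No member of the lists of fat metabolism passed between genotypes, although Acaa1b, which is on none of them, did. In the adipocyte nuclei 0 of 23 thermogenic genes passed in either direction, with a median log2 fold of -0.22 against -0.02 over all 6745 genes, of which 3241 lay above 0. Dio2 was 186 and 628 CPM in KO against 45.1, 351 and 208 in WT (fold 1.57 ± 0.333, adjusted p = 0.101), and Irf4, a factor of the cold response of brown fat, 26.0 and 434 against 20.4, 56.7 and 84.9 (fold 1.93 ± 0.441, adjusted p = 0.126). In both the groups overlapped. Ucp1, a rule gene, was 624 and 1167 CPM in KO against 663, 1553 and 1121 in WT. Among 8 white fat genes 0 passed (median 0.51), and Cfd, which encodes adipsin, had a fold of 1.52 ± 0.442 (adjusted p = 0.318). Of 18 genes of fatty acid uptake and triglyceride synthesis 0 passed (median 0.29). Slc27a1, a fatty acid transport protein, was 2582 and 2843 CPM in KO against 1023, 1084 and 833 in WT, without overlap (fold 1.51 ± 0.287, adjusted p = 0.0620). Of 16 lipogenic genes 0 passed (median 0.07), among them Thrsp, a regulator of lipogenesis, with 756 and 2117 CPM in KO against 398, 487 and 652 in WT (fold 1.52 ± 0.308, adjusted p = 0.0728).

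The signalling lists held few calls. Of 23 genes of mTORC1 and its lysosomal regulators 0 passed (median -0.10), of 22 genes of insulin signalling 0 (median -0.08) and of 24 genes of adrenergic and cAMP signalling 0 (median 0.09). Of 19 secreted factors and hormone receptors 1 passed, Tshr, with a median of 0.03. Ptger3, a prostaglandin E receptor, was 210.0 and 344 CPM in KO against 984, 548 and 650.0 in WT (fold -1.40 ± 0.359, adjusted p = 0.194). Of 8 immediate early and heat shock genes 1 passed, Egr1 (median 0.91). No gene passed among 16 genes of lipid droplets and lipolysis (median 0.26), 20 of fatty acid oxidation (0.04), 15 adipogenic transcription factors (7 above 0), 12 genes of the glucocorticoid receptor and its targets (0.02) or 14 clock genes (0.21). All 10 interferon and MHC class I genes tested had a fold above 0, with a median of 1.31, but H2-Q10 alone passed. H2-K1, a classical MHC class I heavy chain, was 366 and 733 CPM in KO against 139.5, 332 and 208 in WT (fold 1.46 ± 0.291, adjusted p = 0.0726), and B2m, its light chain, 88.0 and 112 against 43.6, 45.3 and 30.9 (fold 1.33 ± 0.399, adjusted p = 0.349). The members of these lists were picked with earlier results known, so their counts and medians are a description.

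The difference between KO and WT was also set against the same difference in all other nuclei, with each library as its own control (edgeR's quasi-likelihood test of the class by genotype term, Benjamini-Hochberg adjustment). In the rule nuclei 180 of 12935 genes (1.39%) passed, 55 (0.425%) higher and 125 (0.966%) lower, and in the adipocyte nuclei 115 of 12178 (0.944%), 30 (0.246%) higher and 85 (0.698%) lower. The genes named here were picked by their KO against WT difference in these nuclei, which favours a large term. For Gm4876, Pcdh7, A830018L16Rik and Tshr it was -3.26 ± 0.514, -2.54 ± 0.383, -2.69 ± 0.376 and -2.40 ± 0.402 (SE) on the log2 scale. Each lay further below 0 than the fold in the adipocyte nuclei, so no fall of these genes in the other nuclei is shown. Pepd, St3gal6, Mgat5 and Cadps2 rose further, by 1.89 ± 0.396, 1.65 ± 0.322, 1.43 ± 0.337 and 1.41 ± 0.340. Pepd stood at 36.8 to 42.4 CPM in the other nuclei of the 5 libraries. For H2-Q10, Acaa1b and Cyp2e1 the term was also negative (-2.51 ± 0.543, -1.98 ± 0.441 and -1.41 ± 0.350), as they rose more in the other nuclei. For this comparison those nuclei held the whole cluster of 46 led by Cps1 and Abcc2. Outside the rule H2-Q10 was far higher in KO replicate 1 than in KO replicate 2, as given above. The part of liver RNA in these terms was not tested. The count of 180 genes fell to 10 with the unassigned library added to KO and to 4 with it added to WT, and without KO replicate 1 or 2 or WT replicate 1, 2 or 3 it was 41, 392, 40, 336 and 284.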

How the data were processed

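The deposited files hold raw UMI counts per gene and barcode. They were made with Cell Ranger 4.0.0 (KO and WT replicate 1) or 3.1.0 (other libraries), per the file headers, and the submitters' processing notes name mm10 and Seurat. The counting of intronic reads was not stated. Replicate numbers follow accession order. The 30406 genes common to both annotations were used. Barcodes with under 300 genes or at least 5% mitochondrial UMIs (48) and 641 barcodes marked as doublets by scrublet (scanpy 1.11.5, 0.8% per 1000 barcodes) were removed. Libraries were clustered together by the Leiden method at resolution 0.8.

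UMIs were summed per library and tested with edgeR 4.0.16 (glmQLFTest, TMM, filterByExpr; batch and genotype; Benjamini-Hochberg, 0.05), and with DESeq2 1.42.0 as an alternative. The share of rule nuclei was compared by exact permutation over libraries; intervals (exact Clopper-Pearson, 95%) and floors cover counting error only. Named genes between genotypes were Tmem127, up to 10 of the largest folds in each direction past the test with the same sign in both batches and, where under 10 passed, the 10 smallest p-values; against other nuclei, the rule genes, Acsl1 and the 20 highest ratios; and members of the lists. All 16 calls in the adipocyte nuclei, and single genes between nuclei with and without Ucp1 outside the lists, were named after their values were seen. The members and gene lists were chosen with earlier results of these data known. Scripts were tested on simulated data.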

Additional observations from a re-analysis of the deposited data

Results flagged for a closer look

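For 14 named genes the difference between KO and WT in the adipocyte nuclei differed from that in all other nuclei. The difference itself was tested (edgeR's quasi-likelihood test, Benjamini-Hochberg adjustment). These genes were named for their KO against WT difference in the rule or adipocyte nuclei, so that choice favoured passing. Over all genes 115 of 12178 (0.944%) passed. On the log2 scale the difference between the 2 effects was above 0 for Iigp1 (4.17), Chsy3 (3.93), Olfr1033 (2.14), Pepd (1.89), St3gal6 (1.65), Mgat5 (1.43) and Cadps2 (1.41). It was below 0 for Gm4876 (-3.26), A830018L16Rik (-2.69), Pcdh7 (-2.54), H2-Q10 (-2.51), Tshr (-2.40), Acaa1b (-1.98) and Cyp2e1 (-1.41). Iigp1, an interferon-inducible GTPase, rested mostly on KO replicate 2, with 24 UMIs there, 5 in KO replicate 1 and 2, 0 and 1 in WT.

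The unassigned library, which entered no main comparison of KO with WT, had the highest share of rule nuclei, 3.04% of its nuclei.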

How the results depend on the processing

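The share of rule nuclei kept a KO mean above the WT mean in percent under each alternative run, by 0.00339 to 0.585 percentage points, but with at least 2 rule genes (6.70% and 3.18% against 5.45%, 4.69% and 4.58%) the order turned on the logit scale of the test, where the KO mean was -3.03 and the WT mean -2.97, as it did under no other alternative run. The smallest p this design allows lies above 0.05, so its p shows nothing about stability. The share with a Ucp1 UMI was lower in KO by 4.28 to 18.2 percentage points. In the rule nuclei, where 0 genes passed edgeR's test (467 at an unadjusted p under 0.05), DESeq2 called 19, the adipocyte cluster in place of the rule 16, at least 2 rule genes 7, at least 3 after thinning to 1000 UMIs 3, rule genes at 0.2% of UMIs 16, and no filter on low counts 474. Leaving out 1 library gave 0 to 395. In the adipocyte nuclei (16 genes) no batch term gave 0, nuclei without a Ucp1 UMI 0, the unassigned library as WT 0, no filter 113 and leaving out 1 library 3 to 136; the refits in adipocyte nuclei were chosen after seeing the data. For the difference between the KO effects (180 genes) no filter gave 336, adipocyte nuclei alone 115, the unassigned library as KO or WT 10 and 4, and leaving out 1 library 40 to 392. Over 187 refits of the 16 called genes none reversed, 86 still passed and 101 did not. Most of these refits reuse the counts that chose the 16 genes, so the lack of reversals shows nothing about stability. The causes of the changes between settings were not tested. KO replicate 2 limits depth, with 134098 UMIs in its adipocyte nuclei. No paired analysis was possible because the labels carry no replicate numbers that could pair KO with WT libraries.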
